A study of Mus musculus with 9 samples.

Results

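The genes described here mark neurons and the progenitor cells from which neurons and glia arise: Tubb3, Vamp2, Dlg4, Stx1a, Syn1, Map2, Nes, Ncam1, Vim and Gja1. They were chosen by symbol from a table of expression values, in which all 10 of 10 had a row among 21352 genes. In GRCm38 they lie at chr8:123411553-123422015 (Tubb3), chr11:69088528-69092381 (Vamp2), chr11:70017203-70045535 (Dlg4), chr5:135023482-135051100 (Stx1a), chrX:20860511-20920918 (Syn1), chr1:66175202-66442583 (Map2), chr3:87971093-87980451 (Nes), chr9:49502129-49799393 (Ncam1), chr2:13574311-13582826 (Vim) and chr10:56377300-56390419 (Gja1). The study exposed HT-22 cells, an immortalized line labelled as mouse hippocampal and neuronal, to homocysteine thiolactone (HTL), a reactive cyclic thioester formed from homocysteine, with or without betaine, a methyl donor, and sequenced RNA from 3 libraries per group. The groups were control cells, for which the sources used here give no treatment, cells held in 2 mM HTL for 24 hours, and cells that had 10 mM betaine in the medium from 4 hours ahead of that HTL treatment. Betaine without HTL was not analysed here, so what betaine does alone and what it does to HTL-treated cells cannot be told apart. All cells are of 1 line, and the labels do not say whether replicate libraries are separate cultures, so p-values speak only for the spread among these libraries, which may be technical.

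Neurons carry transmitter in vesicles that fuse with the plasma membrane when a vesicle SNARE protein (Vamp2) pairs with plasma membrane SNAREs (Stx1a and Snap25), while synapsins (Syn1) hold the vesicles in reserve. On the receiving side, scaffold proteins such as that encoded by Dlg4 anchor glutamate receptors, and the dendrite is stiffened by microtubules that carry the neuronal beta-tubulin of Tubb3 and the dendritic microtubule-binding protein of Map2. Neural progenitors and radial glia instead hold a network of the intermediate filament proteins nestin (Nes) and vimentin (Vim), and their gap junctions are built of the connexin encoded by Gja1. Vim and Gja1 are not particular to the nervous system, since fibroblasts and many cultured cells carry both, and Ncam1, a cell adhesion protein, is found on neurons, glia and muscle. In cells other than neurons, many neuronal genes are held off by the repressor REST, which binds a site in the gene and recruits corepressors.

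Start-site regions of 3 genes are shown because the data turn on these genes. Vim and Nes fell together under HTL, and Syn1 is a neuronal gene with few reads, 32 to 103 per library. The sequences run from 250 bases before to 50 bases after the start site in RefSeq's annotation of GRCm38.p6, written 5′ to 3′ in the direction of the gene, with matches to the motifs searched in capitals. Vim lies at chr2:13574061-13574360 on the plus strand, Nes at chr3:87970843-87971142 on the plus strand, and Syn1 at chrX:20920869-20921168 on the minus strand.
Vim: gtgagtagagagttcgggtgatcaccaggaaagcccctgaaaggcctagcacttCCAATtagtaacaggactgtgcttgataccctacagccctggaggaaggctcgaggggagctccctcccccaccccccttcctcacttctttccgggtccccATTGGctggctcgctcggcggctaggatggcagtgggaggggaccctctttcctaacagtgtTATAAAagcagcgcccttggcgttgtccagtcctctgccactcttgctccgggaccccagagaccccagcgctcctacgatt
Nes: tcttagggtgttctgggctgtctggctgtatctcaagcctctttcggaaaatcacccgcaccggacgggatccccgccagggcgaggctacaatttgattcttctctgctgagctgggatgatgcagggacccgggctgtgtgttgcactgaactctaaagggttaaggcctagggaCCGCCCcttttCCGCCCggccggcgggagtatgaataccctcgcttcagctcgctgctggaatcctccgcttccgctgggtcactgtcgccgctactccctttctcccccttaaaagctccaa
Syn1: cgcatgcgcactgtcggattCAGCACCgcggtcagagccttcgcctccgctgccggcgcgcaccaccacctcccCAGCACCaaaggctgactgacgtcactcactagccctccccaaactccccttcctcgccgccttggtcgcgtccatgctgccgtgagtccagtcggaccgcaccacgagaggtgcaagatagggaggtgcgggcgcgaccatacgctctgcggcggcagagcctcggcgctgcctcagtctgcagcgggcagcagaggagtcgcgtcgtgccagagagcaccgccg
The capitals in Vim mark a TATAAA box at bases -32 to -27 from the start site and CCAAT boxes, on either strand, at -196 to -192 and -94 to -90. In Nes they mark GGGCGG, the core of a GC box, on the minus strand at -73 to -68 and -62 to -57. In Syn1 they mark CAGCACC, the first part of the site that REST is known to bind, at -230 to -224 and -176 to -170. Of 32851 start-site windows of 27025 genes searched on both strands, 13.6% held TATAAA, 37.4% CCAAT, 35.7% GGGCGG and 7.14% CAGCACC. Also searched were GGACAG, the second part of the REST site, in 22.2% of all windows and in none of these 3, and TGANTCA, the AP-1 site, in 7.81% and in none of these 3. The search allowed no mismatch. Just after the first CAGCACC, the Syn1 window holds ggtcag, which has a t in place of an a in GGACAG. The Syn1 window was 68.3% GC with 33 CG dinucleotides, that of Vim 59.3% with 11 and that of Nes 58.7% with 18, against a median of 52.7% and 7 over all windows. Windows were found for 8 of the 10 genes. Besides Syn1, windows of Tubb3 and Dlg4 held CAGCACC, and windows of Tubb3 and Map2 held GGACAG. A match says that these letters are in the window, not that a factor binds there.

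The level of each gene was read as FPKM, a count of fragments divided by gene length and by the mapped fragments of the library. Levels can thus be set side by side between genes only as far as the lengths used hold. For Gja1 a length of 3208 bases was inferred, against 10257 exon bases in GENCODE, and for Map2 21732 against 16449. In each of the 3 groups the order from highest to lowest was Vim, Gja1, Nes, Vamp2, Tubb3, Dlg4, Ncam1, Stx1a, Syn1 and Map2. Within a group, neighbours in this order had no library in common range except Stx1a and Syn1, whose libraries overlapped. The mean of Vim over the 9 libraries was higher than that of 99.8% of genes in the table, rank 44, and Gja1 was higher than 97.7%. Nes was above 89.9% and Vamp2 above 86.7% of genes. Tubb3 stood above 72.6%, Dlg4 above 64.5% and Ncam1 above 57.2%. The lowest were Stx1a, Syn1 and Map2, above 50.3%, 49.6% and 46.2% of genes. In each library, the progenitor filament genes Vim and Nes thus stood above Vamp2, Tubb3, Dlg4, Ncam1, Stx1a, Syn1 and Map2.

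**Figure D1:**
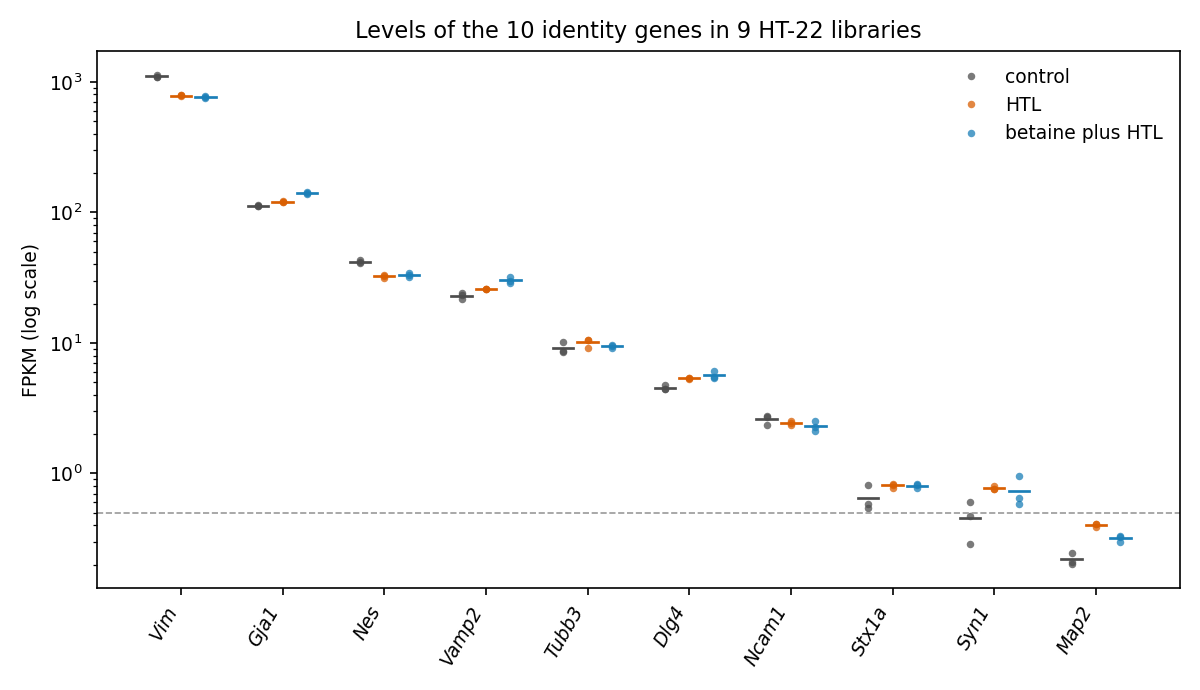
FPKM of each gene in each of the 9 libraries on a log axis, with points for libraries, short lines for group means and a dashed line at 0.5 FPKM. Vim lies at 751.2 FPKM or above in every library and Map2 below the dashed line in all of them.

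Several genes that define mature neurons, named after their values were seen, were close to 0. The neuronal splicing factor Rbfox3 reached at most 0.00208 FPKM in a library and the axonal microtubule-binding gene Mapt at most 0.0156 FPKM. The calcium sensor of vesicle release Syt1 stayed at or below 0.00936 FPKM and the vesicle protein gene Syp at or below 0.146 FPKM. Of the glutamate receptor subunits, Grin1 reached 0.0244 FPKM and Grin2a 0.00126 FPKM. The glutamate vesicle transporter gene Slc17a7, a mark of hippocampal excitatory neurons, reached 0.267 FPKM, and Slc32a1, its counterpart in inhibitory neurons, reached 0.00626 FPKM. These markers were thus low in a line labelled neuronal. Being picked by their values, they cannot settle how neuronal the line is. Other genes of the neuronal lists were expressed. In control, Map1a was at 6.79, Map6 at 17.5, Celf4 at 9.20 and Nlgn2 at 10.6 FPKM. Of the genes with values, 6 of 13 on the neuronal cytoskeleton list and 2 of 7 on the RNA-binding list averaged 0.5 FPKM or more. So did 10 of 23 presynaptic and 9 of 23 postsynaptic genes. Gfap, the filament gene of mature astrocytes, reached 0.0282 FPKM and Prom1, a surface marker of neural stem cells, 0.00317 FPKM. Snap25, Dcx, Sox2 and Gria2 had no value analysed here.

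**Figure D2:**
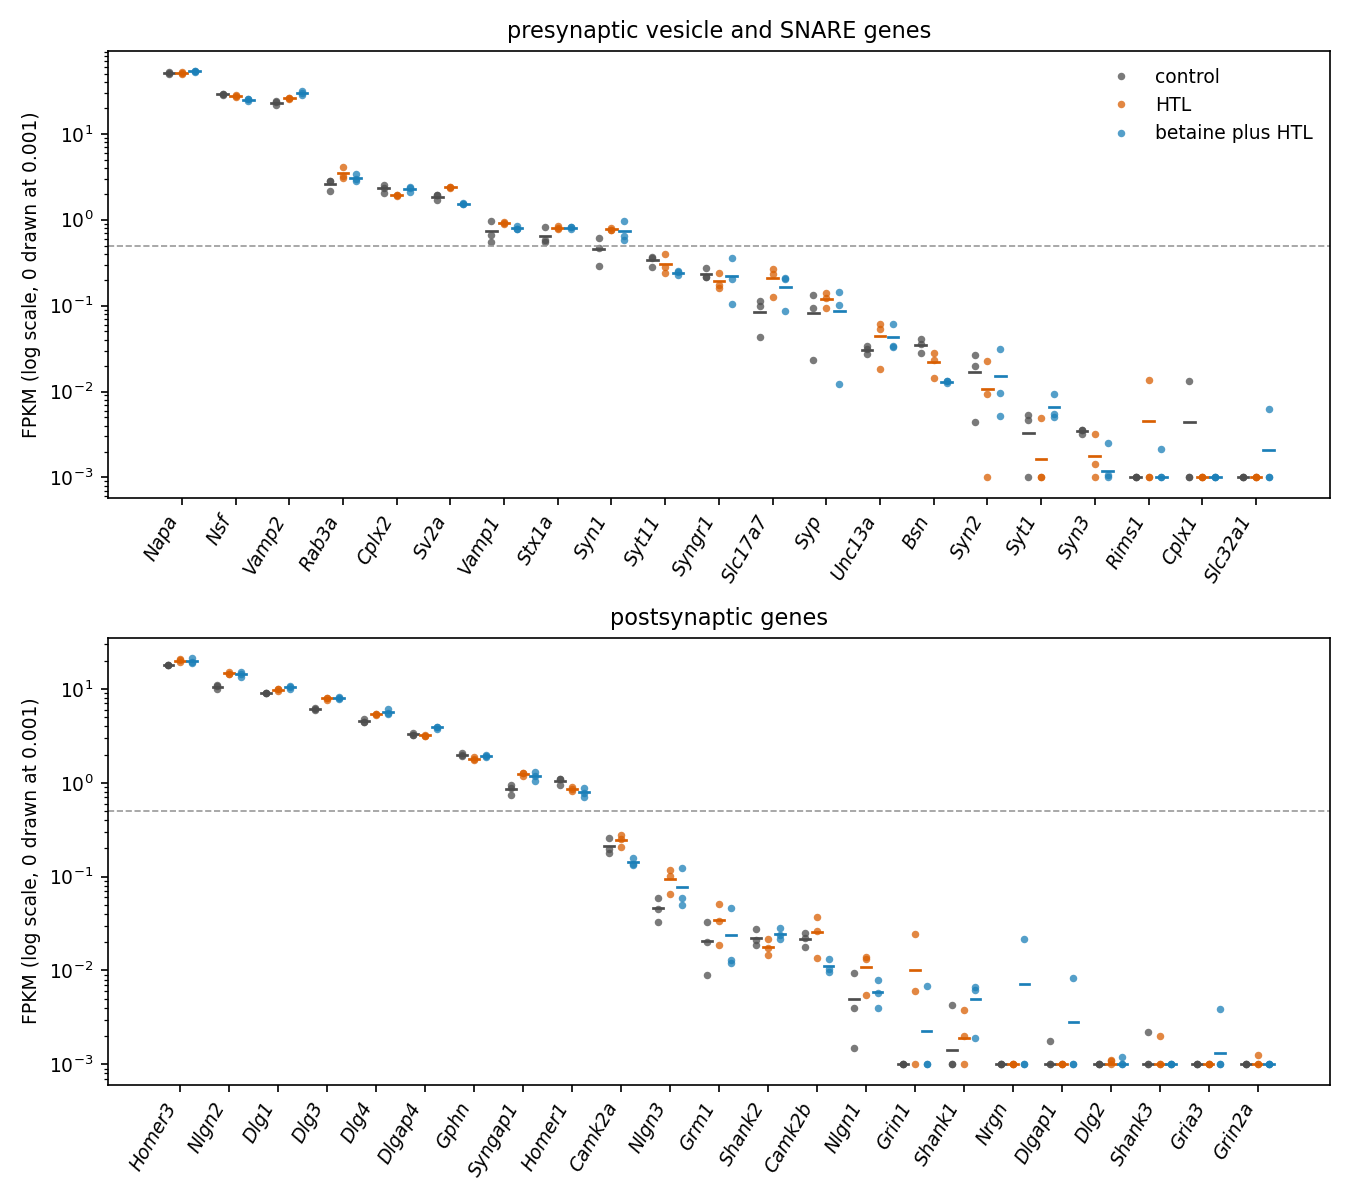
FPKM of presynaptic and postsynaptic genes in each library on a log axis, with values of 0 drawn at 0.001, short lines at group means and a dashed line at 0.5 FPKM. Genes of broad use in vesicle fusion such as Napa lie near 50 FPKM, and Grin2a and Slc32a1 lie below 0.01 FPKM in every library.

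Read counts behind these levels were inferred from the steps between low FPKM values, which gave library totals of 33305472 to 39464509 reads. Vim was read from 47191 to 80321 times per library and Gja1 from 12397 to 17892 times, so counting error is small there. Stx1a was read 65 to 103 times and Syn1 32 to 103 times. For Syn1 the libraries varied beyond what counting alone gives in control cells, with an SD of 35.3% of the mean against 13.4% from counting, and in cells with betaine and HTL, with 27.9% against 10.9%. In HTL cells its SD was 3.36%, below the 10.2% of counting. Map2, with 153 to 343 reads over a gene for which a length of 21732 bases was inferred, is low per length but not thinly read. Across genes, r was 0.9979 to 0.9985 between replicates and 0.9859 to 0.9951 between groups, and no library stood apart.

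Under HTL, the progenitor filament genes fell while Vamp2, Dlg4, Syn1 and Gja1 rose, the rises of Vamp2, Dlg4 and Gja1 being lost under another scaling and that of Syn1 under several settings. Changes were tested with limma on log2(FPKM + 1) over the 11012 genes that averaged 0.5 FPKM or more, with Benjamini-Hochberg adjustment over all of them and a threshold of 0.05; differences below are on that scale, which understates the change of low genes, and folds are ratios of mean FPKM. Of the 9 genes tested (Map2 lies under 0.5 FPKM), 4 rose and 2 fell between control and HTL. That is 66.7% of them, close to the 60.3% of all tested genes that passed, 39.8% up and 20.4% down, so the count says little about these genes as a group. Between HTL and betaine plus HTL, 2 rose and none fell in limma, also at an unadjusted p under 0.05, or 22.2% against a background of 35.2%, 14.5% up and 20.6% down. Between control and betaine plus HTL, 4 rose and 2 fell, or 66.7% against 63.4%, 37.7% up and 25.7% down. Values of the compared groups stood fully apart for 6 of the 9 between control and HTL, 3 between HTL and betaine plus HTL and 5 between control and betaine plus HTL, against 67.2%, 47.7% and 67.1% of all tested genes. These comparisons share libraries pairwise, so they are not independent of each other. The direction of calls over all genes moved with the scaling: of the genes called between control and HTL 66.1% rose with FPKM as deposited, 49.3% with median-of-ratios size factors and 52.2% with quantile normalization. Between HTL and betaine plus HTL these shares were 41.4%, 52.3% and 51.8%, and between control and betaine plus HTL 59.5%, 49.0% and 52.4%.

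**Figure D3:**
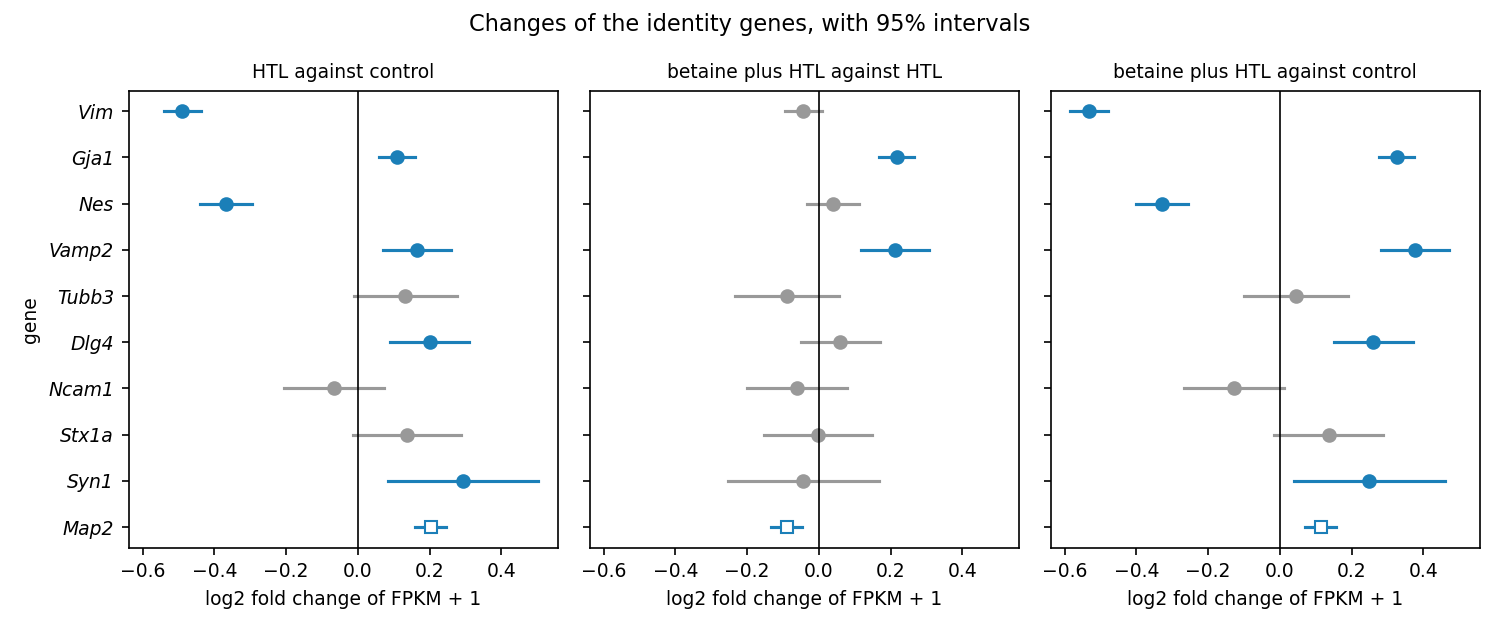
Difference in log2(FPKM + 1) of each gene in the 3 comparisons, with 95% intervals from limma; blue marks adjusted p under 0.05, grey the rest, and an open square Map2, fitted without the filter on low values. Vim and Nes lie below 0 under HTL and Gja1 and Vamp2 above 0 in all 3 comparisons.

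Vim encodes the intermediate filament protein of mesenchymal and progenitor cells. It was measured at 1124, 1087 and 1096 FPKM in the control libraries, at 791.8, 774.3 and 788.0 FPKM in the HTL libraries, and at 751.2, 761.2 and 772.6 FPKM with betaine and HTL. Every control library lay above every treated one, and the libraries with betaine lay just below those with HTL alone without overlap. The mean of HTL was 0.712 times that of control (log2 difference -0.49, SE 0.02, limma adjusted p = 3.83e-08), and with betaine and HTL it was 0.691 times control (-0.53, limma adjusted p = 1.26e-08). Both falls kept their call under all 18 alternative settings. The further step from HTL to betaine plus HTL was -0.04 (95% interval -0.10 to 0.01, limma adjusted p = 0.181) and passed only under quantile normalization (-0.10, limma adjusted p = 0.00903). Vim alone held 0.272% to 0.283% of a control library's summed FPKM and 0.196% to 0.199% of an HTL library's.

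Nes encodes nestin, a filament protein that assembles with vimentin and marks neural progenitors. Its control libraries were at 41.13, 41.97 and 42.82 FPKM, its HTL libraries at 32.32, 33.34 and 31.26 FPKM, and those with betaine and HTL at 33.35, 32.13 and 34.17 FPKM. All 6 treated libraries lay below all control libraries, and the treated groups overlapped. HTL stood at 0.77 times control (-0.37, SE 0.03, limma adjusted p = 3.54e-06) and betaine plus HTL at 0.791 times (-0.33, limma adjusted p = 6.25e-06), and both calls held under all 18 alternatives. Between the treated groups the difference was 0.04 (95% interval -0.03 to 0.11, limma adjusted p = 0.385). The ratio of Vim to Nes went from 26.3 ± 0.92 in control to 24.3 ± 1.01 with HTL and 22.9 ± 0.65 with betaine and HTL (SD, n = 3 each). The ratios of control and HTL did not overlap (exact permutation p = 0.1, two-sided, the smallest that 3 against 3 can give).

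Other markers of mesenchymal cells were read beside Vim. The summed FPKM of the fibroblast and mesenchymal list without Vim, for which 10 of 11 genes had values, ran from 1221 to 1260 in control, 1135 to 1136 in HTL and 1026 to 1056 in betaine plus HTL libraries. Most of this sum was S100a4, at 883.4, 835.3 and 756.6 FPKM in the 3 groups. Of the 5 tested genes of the list besides Vim, 3 fell and 1 rose between control and HTL, against 20.4% and 39.8% of all tested genes. The fall of S100a4 (-0.08, limma adjusted p = 0.0301) changed call or sign in 7 of 18 alternatives. Col1a2, Col3a1, Dcn, Lum and Fap averaged under 0.5 FPKM and were not tested. Fn1, which encodes the matrix protein fibronectin, went from 184.8 to 151.9 and 129.6 FPKM, and Col1a1, a fibrillar collagen gene, from 139.2 to 117.9 and 105.1 FPKM. Both of these fell in each step. Pdgfrb, a growth factor receptor gene of pericytes and fibroblasts, went the other way under HTL, from 6.78 to 9.42 FPKM (0.42, limma adjusted p = 3.97e-06), and fell back to 6.68 FPKM with betaine (-0.44, limma adjusted p = 1.07e-05). Acta2, the smooth muscle actin gene, was at 19.6 and 20.1 FPKM in control and HTL (0.03, limma adjusted p = 0.419) and rose to 43.6 FPKM with betaine (1.08, limma adjusted p = 6.85e-09). The part of these markers in the result for Vim was not tested, and in RNA from whole cultures fewer cells of a type and less RNA per cell cannot be told apart.

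Among the other intermediate filament genes, the nuclear lamina gene Lmna fell from 196.9 ± 2.3 to 160.0 ± 2.5 FPKM under HTL (SD, n = 3 each; -0.30, limma adjusted p = 4.61e-06). Lmnb2, another lamin gene, rose from 19.4 to 22.6 FPKM (0.21, limma adjusted p = 0.00125), whereas Lmnb1 was at 58.3 and 59.2 FPKM (0.02, limma adjusted p = 0.569). Synm, whose product synemin joins vimentin filaments, was lower at 1.24 and 0.938 FPKM (-0.21, limma adjusted p = 0.0105). Of the 5 tested filament genes other than Vim and Nes, 2 fell and 2 rose under HTL, against 20.4% and 39.8% of all tested genes. Their median difference was 0.02 against 0.07 over all tested genes.

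Gja1 encodes the main connexin of astrocytes, radial glia and many cultured cells. Control libraries were at 114.1, 111.4 and 111.1 FPKM, HTL libraries at 120.8, 122.4 and 120.0 FPKM, and libraries with betaine and HTL at 142.0, 141.5 and 139.0 FPKM. The 3 groups formed 3 steps with no overlap. From control to HTL the mean rose 1.08-fold (0.11, SE 0.02, limma adjusted p = 0.00146), a call that was lost with size factors (0.03, limma adjusted p = 0.293). From HTL to betaine plus HTL it rose 1.16-fold (0.22, limma adjusted p = 3.85e-05), and from control to betaine plus HTL 1.26-fold (0.33, limma adjusted p = 3.50e-07), both under all 18 alternatives. The summed FPKM of the astrocyte markers without Gja1, of which 6 of 9 had values and 1 was tested, was 2.91 to 3.19 in control, 2.63 to 3.25 in HTL and 2.39 to 2.72 in betaine plus HTL libraries, so Gja1 was not accompanied by other astrocyte genes at comparable levels. Of 5 tested connexin and pannexin list genes, 3 rose and 1 fell in the first step, against 39.8% and 20.4% of all tested genes. With size factors limma called none higher, also at an unadjusted p under 0.05, and 1 lower there. Those that rose include Gja1 itself and Tjp1, a junction gene on the list that is neither a connexin nor a pannexin gene. Tjp1 was at 25.85, 28.21 and 22.54 FPKM (0.12, limma adjusted p = 0.00358, then -0.31, limma adjusted p = 1.66e-05). Gjc1, another connexin gene, was at 15.6, 17.3 and 18.9 FPKM and rose between control and betaine plus HTL (0.26, limma adjusted p = 0.000198).

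Vamp2, the vesicle SNARE gene, was the highest of the neuronal genes among the 10. It was measured at 24.16, 23.17 and 21.74 FPKM in control, at 26.09, 25.69 and 25.89 FPKM with HTL, and at 28.67, 31.81 and 30.04 FPKM with betaine and HTL. As for Gja1, the groups formed 3 steps with no overlap. The first step was 1.12-fold (0.16, SE 0.04, limma adjusted p = 0.00659) and was lost with size factors (0.09, limma adjusted p = 0.103). The second was 1.17-fold (0.21, limma adjusted p = 0.00308), and both together came to 1.31-fold (0.38, limma adjusted p = 1.81e-05); these calls held under all 18 alternatives. Vamp3, the relative of Vamp2 that serves vesicle fusion in cells of all kinds, was at 58.6 ± 0.70, 56.0 ± 1.85 and 49.7 ± 0.70 FPKM (SD, n = 3), and fell in the second step (-0.17, limma adjusted p = 0.00091). The ratio of Vamp3 to Vamp2 went from 2.55 ± 0.14 to 2.16 ± 0.06 and 1.65 ± 0.11 without overlap in any comparison (exact permutation p = 0.1 each, two-sided).

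**Figure D4:**
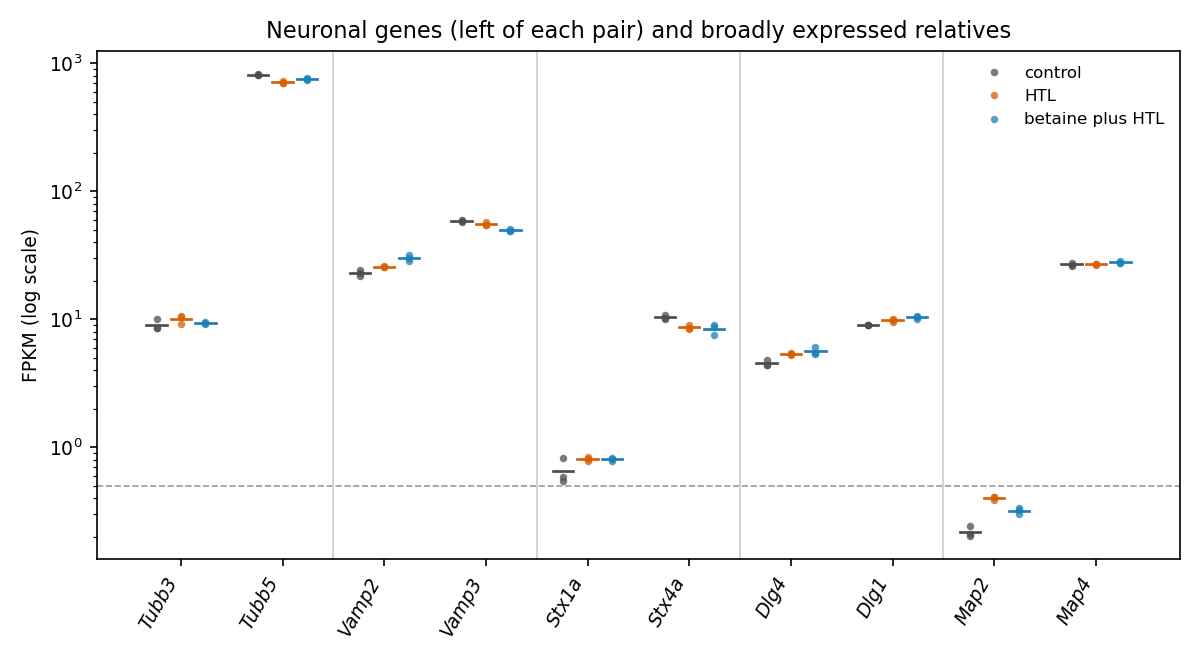
FPKM of 5 neuronal genes and, to the right of each, of a broadly expressed relative, in each library on a log axis; short lines are group means and the dashed line is at 0.5 FPKM. Each relative lies above its neuronal gene, and Vamp2 rises toward Vamp3, from 23.0 FPKM in control to 30.2 FPKM with betaine and HTL, while Vamp3 goes from 58.6 to 49.7 FPKM.

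Stx1a, the neuronal plasma membrane SNARE gene, was near the lower edge of the tested range. Its control libraries were at 0.8212, 0.5822 and 0.5433 FPKM, its HTL libraries at 0.8114, 0.8366 and 0.7796 FPKM, and those with betaine and HTL at 0.7754, 0.8141 and 0.8304 FPKM. Control replicate 1 lay among the treated libraries and the other two control libraries below them. The difference did not pass (HTL against control 0.14, 95% interval -0.01 to 0.29, limma adjusted p = 0.104; betaine plus HTL against control 0.14, limma adjusted p = 0.105). Without control replicate 1 both passed (0.21, limma adjusted p = 0.0152, and 0.21, limma adjusted p = 0.0146). Its non-neuronal relative Stx4a fell from 10.4 to 8.66 FPKM under HTL (limma adjusted p = 0.00517) and was at 8.39 FPKM with betaine and HTL.

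Syn1, which encodes the vesicle-tethering protein synapsin I, had the widest relative spread among control libraries of the 10 genes. It was read at 0.4711, 0.2870 and 0.6073 FPKM in control, at 0.7574, 0.7632 and 0.8052 FPKM with HTL, and at 0.5785, 0.6505 and 0.9625 FPKM with betaine and HTL. All HTL libraries lay above all control libraries, while the group with betaine overlapped both others. HTL was 1.7-fold above control (0.29, SE 0.10, limma adjusted p = 0.0202), and betaine plus HTL 1.61-fold (0.25, limma adjusted p = 0.0392). Neither call was firm: the first was lost without the filter (limma adjusted p = 0.0619), with quantile normalization (0.117), without control replicate 2 (0.0874) or without HTL replicate 3 (0.0552). The second was lost in 10 of 17 alternatives, among them those without control replicate 1 (limma adjusted p = 0.0659), without control replicate 2 (0.161), without HTL replicates 1, 2 and 3 in turn (0.0504, 0.0501 and 0.0505) and without betaine plus HTL replicate 3 (0.163). Its paralog Syn2 stayed at or below 0.0309 FPKM. Syn1 shares 9 exon bases with Araf on the opposite strand, and whether counting used strand is not given in the sources used here.

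Rest, whose product is known to repress Syn1 outside neurons, was itself expressed, at 9.02 ± 0.44 FPKM in control, 10.6 ± 0.18 with HTL and 10.8 ± 0.68 with betaine and HTL (SD, n = 3 each). It rose between control and HTL (0.22, limma adjusted p = 0.00232). Syn1 also rose there, a call that changed in 4 of 17 alternatives, and a link between the levels of Rest and Syn1 was not tested. Of 14 tested genes for REST and its corepressors, 7 rose and 1 fell between control and HTL, against 39.8% and 20.4% of all tested genes. Their median was 0.08 against 0.07 over all tested genes. With size factors 5 rose and 2 fell. Kdm1a, a histone demethylase of the REST complex, rose from 29.8 to 36.3 FPKM (0.28, limma adjusted p = 3.54e-06) and was at 37.3 FPKM with betaine. Hdac1, a histone deacetylase gene, rose from 69.8 to 81.3 FPKM (limma adjusted p = 1.96e-05) and fell to 71.9 FPKM with betaine (limma adjusted p = 0.000291). Rcor2, a corepressor gene, was the 1 that fell under HTL, from 26.0 to 22.4 FPKM (limma adjusted p = 0.000243), and rose to 26.8 FPKM with betaine (limma adjusted p = 0.000217).

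Of 27 presynaptic genes listed, 23 had values and 10 were tested, Vamp2, Stx1a and Syn1 included. Between control and HTL 4 rose and 2 fell, against 39.8% and 20.4% of all tested genes. With either other scaling 2 rose and 3 fell. Among the general fusion genes, Napa was at 50.7 FPKM and Nsf at 28.9 FPKM in control. Nsf, the ATPase gene that takes SNARE complexes apart, fell with betaine from 27.5 to 24.9 FPKM (-0.14, limma adjusted p = 0.00826). Sv2a, a vesicle membrane protein gene, was at 1.682, 1.956 and 1.926 FPKM in control, 2.341, 2.421 and 2.393 FPKM with HTL, and 1.585, 1.521 and 1.524 FPKM with betaine and HTL. The HTL libraries of Sv2a lay above all the others: it rose under HTL (0.25, limma adjusted p = 0.00186) and fell with betaine (-0.41, limma adjusted p = 0.000175).

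Dlg4 encodes a scaffold of the postsynaptic density. Its libraries were at 4.425, 4.416 and 4.786 FPKM in control, 5.429, 5.279 and 5.388 FPKM with HTL, and 5.503, 5.344 and 6.078 FPKM with betaine and HTL. All treated libraries lay above all control libraries, and the treated groups overlapped. HTL was 1.18-fold above control (0.20, SE 0.05, limma adjusted p = 0.00486), a call lost with quantile normalization (0.11, limma adjusted p = 0.0554). Betaine plus HTL was 1.24-fold above control (0.26, limma adjusted p = 0.000818) under all 18 alternatives, and differed from HTL by 0.06 (limma adjusted p = 0.379). Its relative Dlg3 rose from 6.07 to 7.92 FPKM (0.34, limma adjusted p = 2.45e-05), and Dlg1, the most widely expressed of these scaffolds, was at 9.06, 9.81 and 10.4 FPKM.

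Nlgn2, which encodes the adhesion protein neuroligin of inhibitory synapses, was at 10.0, 10.97 and 10.67 FPKM in control, 14.42, 15.07 and 14.57 FPKM with HTL, and 13.44, 14.42 and 15.29 FPKM with betaine and HTL. All 6 treated libraries lay above the control ones, and HTL differed from control by 0.44 (limma adjusted p = 1.49e-05). Of 30 postsynaptic genes listed, 23 had values and 9 were tested, Dlg4 included. In limma 6 rose and none fell between control and HTL (1 fell at an unadjusted p under 0.05), against 39.8% and 20.4% of all tested genes. The median was 0.14 against 0.07 over all tested genes. With size factors 4 rose and 2 fell, and with quantile normalization 3 rose and 3 fell. Between HTL and betaine plus HTL 1 rose, the scaffold-linker gene Dlgap4, from 3.19 to 3.90 FPKM (0.23, limma adjusted p = 0.0023). Over the 481 tested genes that the deposited table annotates to the synapse, to which Vamp2, Dlg4, Stx1a and Syn1 belong, 150 rose and 143 fell between control and HTL, or 60.9% called against 60.3% of all tested genes. By direction 31.2% rose and 29.7% fell, against 39.8% and 20.4% of all tested genes, with a median of -0.0086 against 0.0686.

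Tubb3 encodes the beta-tubulin used as a label of young neurons. Its libraries were at 8.616, 10.13 and 8.553 FPKM in control, 10.47, 10.61 and 9.121 FPKM with HTL, and 9.590, 9.167 and 9.410 FPKM with betaine and HTL. The groups overlapped, and HTL differed from control by 0.13 (95% interval -0.01 to 0.28, limma adjusted p = 0.101). The difference passed when control replicate 2 (0.20, limma adjusted p = 0.0133) or HTL replicate 3 (0.20, limma adjusted p = 0.0239) was left out. Betaine plus HTL differed from HTL by -0.09 (95% interval -0.23 to 0.06, limma adjusted p = 0.32) and from control by 0.04 (limma adjusted p = 0.574). Tubb5, the beta-tubulin gene of dividing cells, was 90.4 ± 8.6 times as high as Tubb3 in control, 70.9 ± 6.1 times with HTL and 80.3 ± 3.2 times with betaine and HTL (SD, n = 3). Tubulin genes are close in sequence, so how the counting placed shared reads may affect these values. Of 11 tested tubulin genes, 2 rose and 5 fell between control and HTL, against 39.8% and 20.4% of all tested genes. Between HTL and betaine plus HTL 1 rose and 7 fell, against 14.5% and 20.6%. In that second step Tubg1, Tubb5 and Tuba4a changed call or sign in 9, 6 and 3 of 18 alternatives. Tuba1a, an alpha-tubulin gene high in young neurons, was at 352.2 and 343.1 FPKM in the first step (limma adjusted p = 0.253) and fell to 276.9 FPKM in the second (-0.31, limma adjusted p = 1.24e-05). Tubb2a, another beta-tubulin gene, rose from 70.2 to 88.1 FPKM (0.32, limma adjusted p = 1.16e-05) and fell to 74.7 FPKM (-0.23, limma adjusted p = 0.000384).

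Map2 was below the filter in every library, so it entered no main test. It was read at 0.2444, 0.2029 and 0.2099 FPKM in control, at 0.3861, 0.4109 and 0.4124 FPKM with HTL, and at 0.3234, 0.3001 and 0.3330 FPKM with betaine and HTL. The 3 groups did not overlap, with HTL highest, betaine plus HTL between and control lowest. The means stood at 1.84 times control with HTL and 1.46 times with betaine and HTL, the latter being 0.791 times HTL. Fitted without the filter, over all 21352 genes, of which 30% were called in the first comparison, 14.9% in the second and 31.5% in the third, Map2 differed by 0.20 between control and HTL (SE 0.02, limma adjusted p = 0.000154). It then differed by -0.09 between HTL and betaine plus HTL (limma adjusted p = 0.0168) and by 0.11 between control and betaine plus HTL (limma adjusted p = 0.00219). Map4, the related microtubule-binding gene of non-neuronal cells, was at 26.9, 26.9 and 28.0 FPKM. The ratio of Map4 to Map2 was 123 ± 8.6 in control, 66.8 ± 3.3 with HTL and 88.2 ± 6.1 with betaine and HTL, with no overlap in any comparison (exact permutation p = 0.1 each, two-sided). Map2 shares 124 of its 16449 exon bases with Gm10558 on the opposite strand, and reads on these shared bases cannot be told apart without strand.

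Other cytoskeletal genes of neurons took courses of their own. Map1a, a microtubule-binding gene of mature neurons, fell in each step, from 6.79 to 5.35 and 4.15 FPKM (-0.30, limma adjusted p = 0.00012, then -0.30, limma adjusted p = 0.000324). Dpysl3, whose product acts in growing axons, was at 13.8 and 14.4 FPKM in control and HTL and rose to 18.2 FPKM with betaine (0.32, limma adjusted p = 1.03e-05). Map6, which stabilizes microtubules, fell from 17.5 to 15.6 FPKM under HTL (limma adjusted p = 0.00142). Of 6 tested genes of the neuronal cytoskeleton list, Tubb3 included, none rose and 2 fell in limma under HTL, against 39.8% and 20.4% of all tested genes. The counts were the same at an unadjusted p under 0.05.

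Ncam1 was at 2.337, 2.747 and 2.725 FPKM in control, 2.506, 2.451 and 2.346 FPKM with HTL, and 2.103, 2.524 and 2.260 FPKM with betaine and HTL. The groups overlapped in all 3 comparisons. HTL differed from control by -0.07 (95% interval -0.21 to 0.07, limma adjusted p = 0.379) and betaine plus HTL by -0.13 (limma adjusted p = 0.0973). The latter passed with size factors (-0.17, limma adjusted p = 0.0358), with quantile normalization (-0.19, limma adjusted p = 0.0168), without control replicate 1 (-0.18, limma adjusted p = 0.0302) and without betaine plus HTL replicate 2 (-0.18, limma adjusted p = 0.0389). Under quantile normalization the HTL comparison passed as well (-0.17, limma adjusted p = 0.0337). Cdh2, the neural cadherin gene, was at 6.73, 7.00 and 8.21 FPKM and rose in the second step (0.20, limma adjusted p = 0.00166). Among genes of axon guidance, Nrp2, a semaphorin receptor gene, fell from 38.3 to 24.5 FPKM under HTL (-0.63, limma adjusted p = 1.21e-07) and rose to 40.1 FPKM with betaine (0.69, limma adjusted p = 1.93e-07). Efnb2, an ephrin ligand gene, fell in both steps, from 4.74 to 3.26 and 2.51 FPKM (-0.43, limma adjusted p = 7.83e-06, then -0.28, limma adjusted p = 0.000506). Nrp1, the other neuropilin gene, was at 1.42 FPKM in both control and HTL and fell to 0.821 FPKM with betaine (-0.41, limma adjusted p = 0.000239). Ncam1 shares 417 exon bases with Gm11149 on the opposite strand.

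Progenitor genes other than Nes and Vim moved in both directions. Sox4, a transcription factor gene of progenitors on their way to neurons, was at 18.12, 17.07 and 17.04 FPKM in control, 26.83, 27.61 and 28.24 FPKM with HTL, and 37.40, 37.52 and 38.84 FPKM with betaine and HTL. The groups formed 3 rising steps without overlap (0.63, limma adjusted p = 6.68e-08, then 0.45, limma adjusted p = 3.20e-06). Cd24a, a surface protein gene of young neurons and epithelia, rose from 63.1 to 92.0 FPKM under HTL (0.54, limma adjusted p = 1.06e-06) and fell to 73.5 FPKM with betaine (-0.32, limma adjusted p = 0.000162). Id1, an inhibitor of differentiation, was at 40.6 and 37.1 FPKM in control and HTL, a difference that passed (-0.13, limma adjusted p = 0.0425) but was lost without the filter or the intensity trend and without control replicate 2 or 3, HTL replicate 1 or 2, or betaine plus HTL replicate 3. It fell to 27.4 FPKM with betaine (-0.42, limma adjusted p = 9.17e-05). Of 12 tested progenitor genes other than Nes and Vim, 5 rose and 1 fell between control and HTL, against 39.8% and 20.4% of all tested genes. Among these calls, Pax6 and Id2 changed call or sign in 9 and 5 of 18 alternatives. The whole list of 14 gave 5 up and 3 down as deposited, 3 up and 4 down with size factors, and 3 up and 5 down with quantile normalization.

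**Figure D5:**
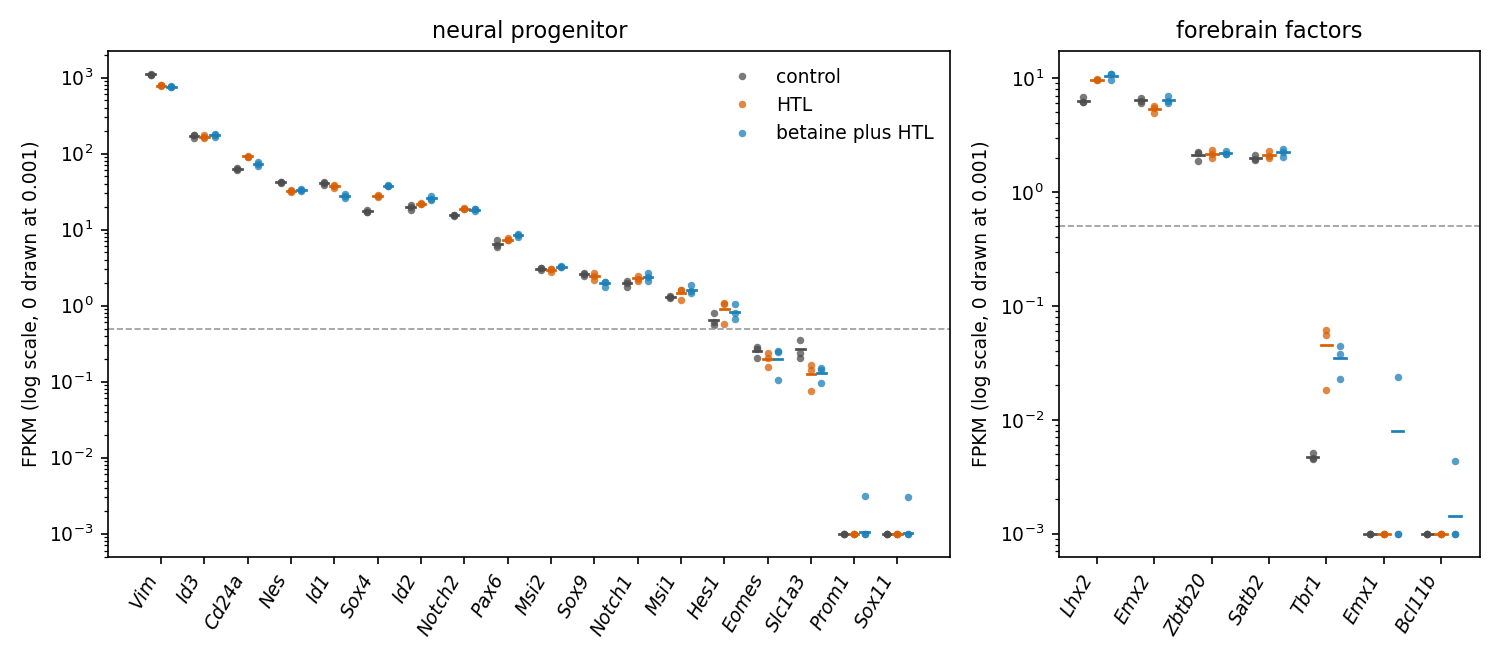
FPKM of neural progenitor genes (left) and forebrain transcription factor genes (right) in each library on a log axis, with values of 0 drawn at 0.001, short lines at group means and a dashed line at 0.5 FPKM. Sox4 rises from about 17 FPKM in control to 37 FPKM or more with betaine and HTL, while Prom1 stays below 0.01 FPKM.

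Forebrain transcription factor genes moved in both directions under HTL. Lhx2, which acts in early hippocampal patterning, rose, being at 6.35 ± 0.36 FPKM in control and 9.72 ± 0.14 with HTL (SD, n = 3 each; 0.55, limma adjusted p = 5.26e-06). Emx2, a gene of the medial cortex and hippocampus, fell from 6.38 to 5.36 FPKM (-0.22, limma adjusted p = 0.00736). Emx2 was back at 6.45 FPKM with betaine (0.23, limma adjusted p = 0.0104). Both tested genes of the neuronal RNA-binding list fell under HTL, as did 20.4% of all tested genes. Rbfox2, a splicing factor gene, fell from 28.0 to 23.3 FPKM (limma adjusted p = 1.90e-05) and Celf4 from 9.20 to 7.18 FPKM (limma adjusted p = 0.000314).

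For each gene the others of at least 5 FPKM whose levels followed it most closely over the 9 libraries were found by Pearson's r of log2(FPKM + 1), as a description that rests largely on the 3 group means. For Vim they were Timp2, a metalloproteinase inhibitor gene (r = 0.999), at 161, 72.6 and 67.4 FPKM in the 3 groups, and Cc2d1b (r = 0.996). For Nes they were Ascc2 (r = 0.995) and Bpnt1 (r = 0.990). For Gja1 they were Asns, the asparagine synthetase gene (r = 0.996), at 98.5, 115 and 147 FPKM, and Sos2 (r = 0.995). For Vamp2 they were Slc39a6 (r = 0.988) and Hexa (r = 0.986), and for Dlg4 Tmem161a (r = 0.993) and Pex5 (r = 0.991). The closest to Tubb3, Stx1a, Syn1 and Ncam1 were looser, at r = 0.920 (Vti1b), 0.960 (Bcl2l13), 0.945 (Ttc4) and 0.916 (Ascc3).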

How the data were processed

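RNA of 9 HT-22 libraries was measured. The deposited values are FPKM per gene, made by the authors, per the file headers; fastp, HISAT2, HTSeq and R 3.2.0 with build mm10 are named in the submitters' processing notes, and strand handling is not given in the sources used here. On the log2(FPKM + 1) scale, the 11012 of 21352 genes averaging 0.5 FPKM or more entered limma 3.58.1 (R 4.3.3), with an intensity trend and all 9 libraries (6 residual degrees of freedom), two-sided, with Benjamini-Hochberg adjustment. The test was tried on simulated data. Read counts and library totals were inferred from FPKM steps, which gave whole reads (tolerance 0.005 reads) for 225 of 226 listed genes; they were used for depth only. The genes, lists and motifs were chosen with earlier results of these data known. Named besides the 10 genes are their relatives and the 2 closest by Pearson's r. Per list, up to 3 of the highest and up to 2 with the smallest p per comparison are named too. Genes near 0 or under 0.5 FPKM were named after their values were seen, and Tubg1, Pax6 and Id2 for calls that changed between settings. Gene overlaps come from GENCODE exons on GRCm38. Alternatives were other pseudocounts, filters and scalings, no trend, 2 groups only, a replicate block and each library left out. Some genes that this rule or the lists take are not reported here and are left out of the plots.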

Additional observations from a re-analysis of the deposited data

How the results depend on the processing

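Genes called between control and HTL, HTL and betaine plus HTL, and control and betaine plus HTL numbered 6639, 3871 and 6981, and ran over the 18 alternatives from 4967 to 6800, 3057 to 3861 and 5230 to 7002, within 1.5 times of the main count. Leaving out each library gave 5962 to 6788, 3057 to 3851 and 6435 to 6939. The replicate numbers did not pair the samples: same-numbered libraries correlated in their deviations from group means at -0.0729 to 0.0592 over 9 pairs, and the replicate block gave 6532, 3690 and 6920 calls. Of 477 recomputed results for the 9 tested genes, 442 kept direction and call, 17 lost the call, 10 gained it and 8 changed sign, none of the last being called either way; the cause was not tested. The sign changes were in Stx1a between HTL and betaine plus HTL (0.0088 with size factors, 0.0469 with quantile normalization, -0.0139 to 0.0105 with each library left out), in Syn1 in that comparison (0.0105 with quantile normalization, -0.1372 to 0.0199 with each library left out) and in Tubb3 between control and betaine plus HTL (-0.0033 with size factors and -0.0249 with quantile normalization). Calls of Vim and Nes against control, of Vamp2 and Gja1 with betaine and of Dlg4 in betaine plus HTL against control held throughout. Stx1a and Syn1 had as few as 65 and 32 reads in a library, and their control libraries spread beyond counting error (23.2% of the mean against 11.3%, and 35.3% against 13.4%).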
